A study of Homo sapiens with 6 samples.

Results

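The genes described are the numbered ZNF genes of human chromosome 19. Members were the rows of the count table whose symbol is ZNF followed by a number, with or without 1 closing letter, and whose first listed chromosome is 19. They were 253 of 26334 genes, and another 276 genes with such symbols lie on other chromosomes. RNA was sequenced from MCF10DCIS, a basal-like human breast cancer cell line derived from MCF10A cells, grown in DMEM/F12 with horse serum. The control cells carried the lentiviral vector pRSI-U6-shLuc-UbiC-TagRFP-2A-Puro, whose hairpin targets luciferase, and the silenced cells carried the same vector with shWDR5 in place of shLuc. Both groups were selected with puromycin, and each has 3 libraries. The paper pooled WDR5 hairpins for its tumor experiments in this line, but which hairpin or hairpins the sequenced cells carried is not stated. Effects of a hairpin other than WDR5 loss therefore cannot be told apart from WDR5 loss. All libraries come from 1 line. The paper's methods describe its data in general as biological triplicates unless stated otherwise. The labels do not name the libraries of a group as separate cultures, so p-values measure the spread between these libraries. Each value is a bulk value, in which fewer cells carrying a transcript and less transcript per cell cannot be told apart.

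ZNF genes encode proteins with C2H2 zinc fingers, small folds that hold a zinc ion and read DNA bases. In many of the chromosome 19 members the fingers follow a KRAB domain, which recruits the co-repressor TRIM28 and through it the histone H3K9 methyltransferase SETDB1, so that the bound site is packed into heterochromatin. The genes arose by repeated tandem duplication and lie in clusters along the chromosome, and many of the proteins bind transposable elements. WDR5 is a core subunit of the complexes that methylate H3K4, a mark of active promoters, and the comparison of shWDR5 with shLuc asks what its silencing does to transcription in these cells.

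The promoters of 4 members carry the extremes of the comparison and are printed from RefSeq (GRCh38.p14). Among members over 0.4 RPKM (CPM divided by the exon length in kilobases, where CPM is the counts-per-million level), ZNF580 and ZNF132 had the largest rises in shWDR5 cells and ZNF460 and ZNF615 the largest falls. Each run holds the 250 bases before the annotated start, 5′ to 3′ on the gene's strand. Capitals mark CCGGAAG or its reverse complement, the core letters bound by ETS family factors, which are common in promoters of this gene family. ZNF580 is read from chr19:55640752-55641001 (plus strand), ZNF132 from chr19:58440154-58440403 (minus), ZNF460 from chr19:57279732-57279981 (plus) and ZNF615 from chr19:52008212-52008461 (minus).
ZNF580: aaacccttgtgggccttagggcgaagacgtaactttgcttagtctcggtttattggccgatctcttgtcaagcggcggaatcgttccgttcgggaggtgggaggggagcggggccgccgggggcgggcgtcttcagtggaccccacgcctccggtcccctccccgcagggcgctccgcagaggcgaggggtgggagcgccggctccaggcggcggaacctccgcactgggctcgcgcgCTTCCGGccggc
ZNF132: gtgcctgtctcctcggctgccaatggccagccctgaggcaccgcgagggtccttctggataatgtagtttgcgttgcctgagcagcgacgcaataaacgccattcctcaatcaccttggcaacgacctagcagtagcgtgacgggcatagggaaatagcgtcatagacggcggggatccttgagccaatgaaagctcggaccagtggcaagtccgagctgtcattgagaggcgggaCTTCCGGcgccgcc
ZNF460: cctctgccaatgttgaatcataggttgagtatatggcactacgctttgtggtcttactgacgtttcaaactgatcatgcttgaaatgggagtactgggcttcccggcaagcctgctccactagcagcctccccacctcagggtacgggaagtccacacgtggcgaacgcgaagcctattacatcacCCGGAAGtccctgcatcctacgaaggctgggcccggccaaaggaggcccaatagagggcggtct
ZNF615: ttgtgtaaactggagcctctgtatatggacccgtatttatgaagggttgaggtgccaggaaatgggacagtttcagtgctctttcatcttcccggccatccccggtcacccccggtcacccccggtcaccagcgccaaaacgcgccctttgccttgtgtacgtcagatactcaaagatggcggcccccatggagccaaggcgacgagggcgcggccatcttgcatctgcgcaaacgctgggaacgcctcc
The letters lie 12 bases before the start of ZNF580, 14 bases before that of ZNF132 and 64 bases before that of ZNF460. ZNF615 has 0 matches in this window. The RefSeq start used for ZNF460 does not begin a transcript of the GENCODE v29 annotation, and the starts of the other 3 do.

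The silenced gene was lower in every shWDR5 library. WDR5 stood at 52.6, 48.5 and 51.3 CPM (scaled with TMM factors) in the 3 shLuc libraries and at 23.4, 24.4 and 20.8 CPM in the 3 shWDR5 libraries, a log2 fold change of −1.15 (SE 0.07, adjusted p = 8.67e-07, edgeR quasi-likelihood test). The libraries held 38218108 to 57640167 counted reads. The 7 epithelial markers listed for a basal-like line (KRT5, KRT6A, KRT14, KRT17, TP63, CDH1 and EPCAM) were all over 1 RPKM, and their sum was 2020 to 2150 RPKM in shLuc and 3460 to 3950 in shWDR5, with most of the difference in KRT17 (means of 1372 and 2624 RPKM) and KRT5 (356 and 671). CDH1 (103 and 50.3 RPKM) and EPCAM (165 and 131), which mark epithelia in general, had lower means in shWDR5, and the luminal markers summed to 1740 to 1890 RPKM in shLuc and 1690 to 1850 in shWDR5, with ESR1 and PGR under 1 RPKM. Markers of fibroblasts summed to 3.65 to 3.99 RPKM in shLuc and 2.52 to 3.01 in shWDR5, those of endothelial cells to 1.71 to 1.77 and 1.03 to 1.16, and those of leukocytes to 0.814 to 1.07 and 0.427 to 0.486, with LUM and CD3E at 0 in every library. The 10 most abundant genes of a library took 5.74 to 6.09% of its counts in shLuc and 7.67 to 8.16% in shWDR5, and the part of this shift in the values below was not tested beyond the scaling alternatives.

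Most members were expressed at low levels. Counts on members made up 0.157 to 0.167% of all counts in each library, without separation of the groups. Of the 253 members, 194 passed the filter on low counts (76.7%), against 61.2% of all genes. The other 59 members were not tested: 21 had 0 counts in every library, and the highest single count among the rest was 14, for ZNF69. The median tested member had 1.25 RPKM, against 5.36 RPKM for the median of all tested genes. Of the tested members, 112 exceeded 1 RPKM and 8 exceeded 10 RPKM. ZNF146, which encodes a protein made almost wholly of fingers, was the most abundant member by length-corrected level at 44.9 RPKM, followed by ZNF581, ZNF580 (17.1 RPKM), ZNF787 (15.3) and ZNF561 (15.0). These are means over the 6 libraries.

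Members moved in both directions in shWDR5 cells. At an adjusted p under 0.05, 34 of the 194 tested members were higher in shWDR5 and 45 were lower, so 79 were called (40.7%). With offsets for GC content and length, added after the data were seen, 42 were higher and 41 lower of 192, and with the offsets and a replicate block together 45 were higher and 39 lower, so the larger number of falls was not kept. Over all 16117 tested genes the percentage called was 56.5, with 26.6 higher and 29.9 lower, so a smaller share of members than of all genes was called. The median log2 fold change of the tested members was −0.03, with 88 above 0 and 106 below, and the median of all tested genes was −0.01. Members have lower counts than most genes, so the shares were also taken within a range of abundance. Among genes within the members' interquartile range of abundance, 43 of 96 members were called (44.8%), 43 of 89 ZNF genes on other chromosomes (48.3%) and 58.9% of all genes. The 3 libraries of each group did not overlap for 95 of the tested members (49%), against 62.3% of all genes. Members both called and separate were 78, all called members but ZNF146, and over all genes the percentage that met both was 55.

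Changes of members were mostly small. Only 21 of the tested members passed the study's fold limit of 0.6 on the log2 scale together with the adjusted p (10.8%), against 22.9% of all genes. The study's rule, stated for its patient-derived tumors, also required expression over 0.5 RPKM. That limit was not applied to these counts, and some of the 21, such as ZNF808 and ZNF382, lay under it in both groups. The middle 50% of members lay between −0.27 and 0.20 on the log2 scale. Of the ZNF genes on other chromosomes, 62 of 236 tested were higher and 60 lower (51.7% called, median −0.004), and of the other genes on chromosome 19, 300 of 903 were higher and 215 lower (57.0% called, median 0.09). Leaving out any 1 library gave 31 to 35 higher and 40 to 44 lower members.

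**Figure D1:**
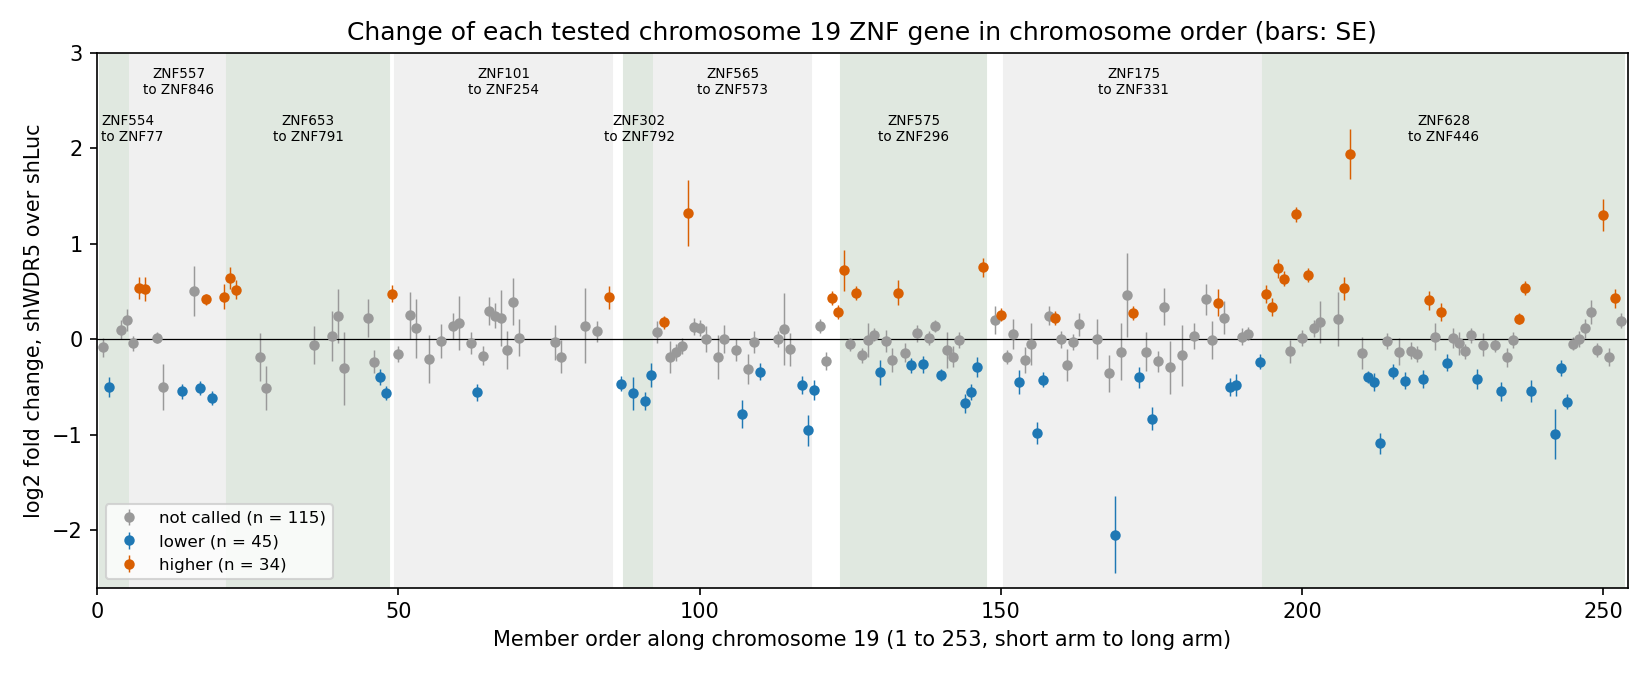
Log2 fold change (shWDR5 over shLuc) of each of the 194 tested members, plotted in the order of the members along chromosome 19, with bars for the standard error and shading for the 9 clusters of at least 5 members. Of these, 34 members were called higher and 45 lower, and both kinds occur along most of the chromosome, with ZNF470 at the top and ZNF808 at the bottom.

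The rises were led by ZNF580, by the strength of its test. ZNF580 lies at chr19:56152392-56154836 (hg19, plus strand) and stood at 17.1, 14.8 and 14.6 CPM in shLuc and 40.0, 37.8 and 37.8 CPM in shWDR5. The log2 fold change was 1.31 (SE 0.08, adjusted p = 5.55e-07), or 2.48-fold. Its neighbor ZNF581 begins just past the end of ZNF580 on the same strand and stood at 27.1, 24.1 and 22.2 CPM in shLuc and 26.2, 24.7 and 23.2 in shWDR5 (log2 fold change 0.01, adjusted p = 0.909). The groups overlap for ZNF581. Of the 50-base windows in ZNF580 transcripts, 11.3% also occur in transcripts of another ZNF gene, mostly ZNF581, so reads there cannot be assigned to a single gene by sequence.

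The largest fold change upward was that of ZNF470 (chr19:57078890-57094262), at low counts. Its libraries held 11, 10 and 12 reads in shLuc and 56, 45 and 46 in shWDR5, which is 0.223, 0.258 and 0.297 CPM against 1.21, 0.792 and 1.01 CPM. The log2 fold change was 1.94 (SE 0.26, adjusted p = 0.000106). ZNF471, its upstream neighbor, stood at 1.96, 2.01 and 2.26 CPM in shLuc and 3.02, 3.26 and 2.71 CPM in shWDR5 (log2 fold change 0.54, adjusted p = 0.00324). ZNF382, a KRAB repressor, had only 4, 5 and 6 reads in shLuc and 12, 18 and 14 in shWDR5 (log2 fold change 1.32, adjusted p = 0.0079). With DESeq2 the adjusted p of ZNF382 was 0.0745.

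ZNF132, near the end of the long arm at chr19:58944181-58951589, stood at 0.870, 0.774 and 0.793 CPM in shLuc and 1.79, 1.92 and 2.36 in shWDR5. The rise was 2.47-fold (log2 1.30, SE 0.16, adjusted p = 7.19e-05). The remaining 6 of the 10 largest rises lay between 0.64 and 0.76 on the log2 scale. ZNF296 stood at 2.95, 2.48 and 2.63 CPM in shLuc and 4.6, 4.59 and 4.48 in shWDR5 (log2 0.76, adjusted p = 0.000117). ZNF524 stood at 10.3, 8.67 and 8.87 CPM against 16.2, 13.9 and 16.7 (log2 0.74, adjusted p = 9.12e-05). ZNF787, at 25.7, 22.2 and 23.8 CPM against 37.9, 37.0 and 39.4, rose by a log2 of 0.67 (adjusted p = 2.21e-05). These 3 genes and ZNF653 (log2 0.64) and ZNF865 (log2 0.64) kept their calls in every alternative in which they were tested. ZNF575 (log2 0.72, adjusted p = 0.0141) did not: its adjusted p was 0.0588 without shLuc replicate 2, 0.0508 without shWDR5 replicate 3 and 0.0713 with DESeq2.

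Among the falls, ZNF460 combined a large change with a sizeable level. ZNF460 (chr19:57791853-57805436, plus strand) stood at 14.0, 14.8 and 12.7 CPM in shLuc and 6.33, 7.44 and 5.60 CPM in shWDR5, 2.13-fold lower (log2 −1.09, SE 0.11, adjusted p = 1.46e-05). ZNF615 (chr19:52494587-52511483, minus strand) stood at 4.80, 5.31 and 5.33 CPM in shLuc and 2.35, 2.99 and 2.43 in shWDR5 (log2 −0.98, SE 0.12, adjusted p = 4.97e-05). ZNF573 stood at 2.75, 2.73 and 2.68 CPM against 1.53, 1.06 and 1.68 (log2 −0.95, adjusted p = 0.000558).

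ZNF808, which people need for pancreas development, had the largest negative value but few reads. Its libraries held 17, 20 and 14 reads in shLuc and 2, 8 and 4 in shWDR5 (log2 −2.05, SE 0.40, adjusted p = 0.00144). Of the 50-base windows in its transcripts, 20.2% occur in other ZNF genes, most often ZNF701, so its count is uncertain. ZNF135 had 22, 21 and 16 reads in shLuc against 11, 12 and 11 (log2 −0.995, adjusted p = 0.00777), and its adjusted p with DESeq2 was 0.0775. Near-identical copies also bear on ZNF585A (log2 −0.78), which shares 11.3% of its windows, mostly with ZNF585B, and on ZNF28 (log2 −0.83, 7.29% shared) and ZNF285 (log2 −0.67, 6.87% shared). ZNF30, with log2 −0.65, completes the 10 largest falls together with ZNF274, described with the members of known role. Over the tested members the median share of such windows was 0.401%, 32 tested members exceeded 5%, and 13 of these were called. That share is near the 40.7% called over all tested members and below the 56.5% of all genes.

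**Figure D2:**
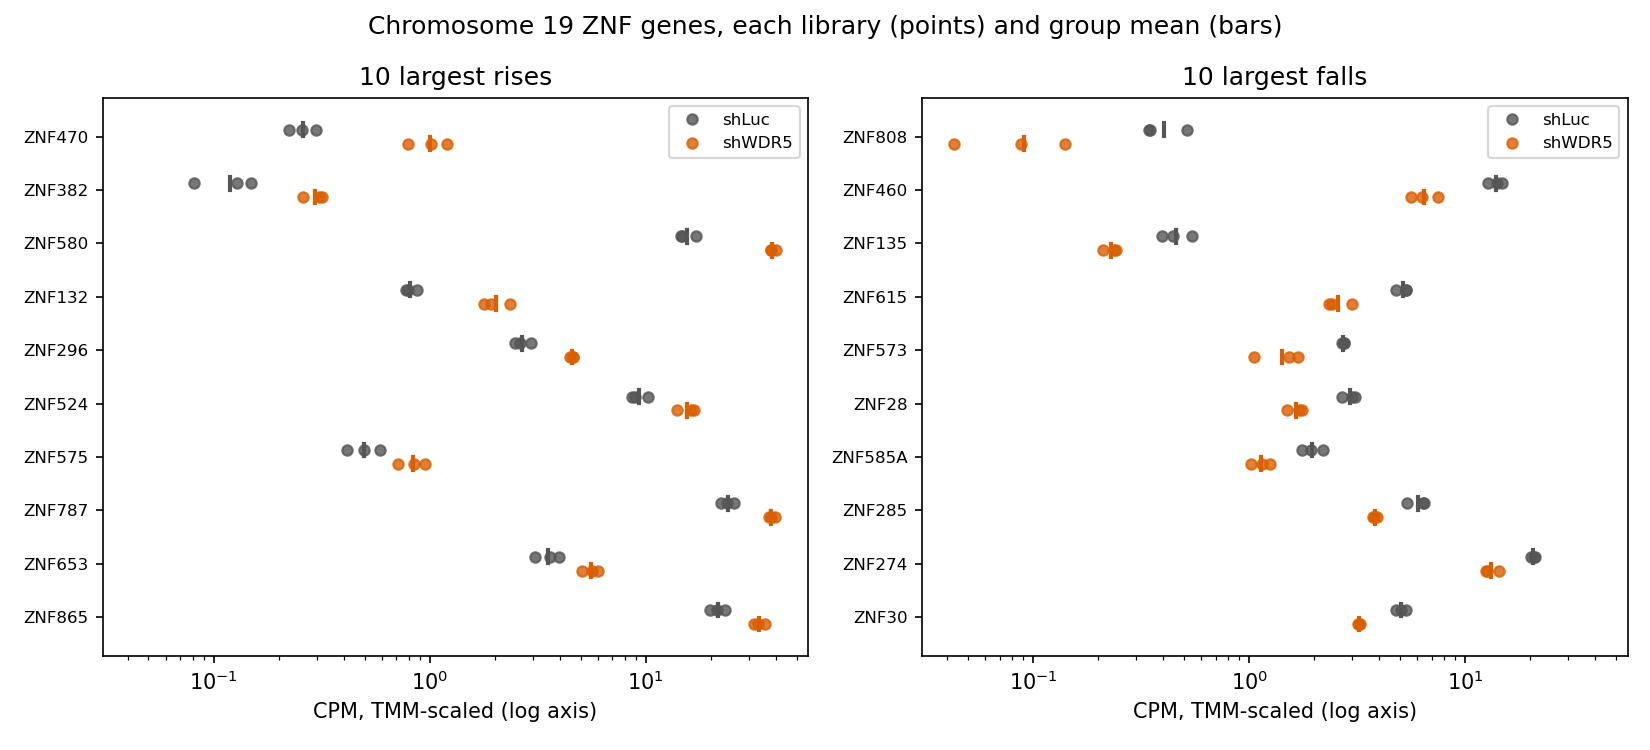
CPM on a log axis for the 10 members with the largest rises (left) and the 10 with the largest falls (right), among called members whose groups do not overlap; points are single libraries (3 shLuc, 3 shWDR5) and bars are group means. The members were selected for this separation, and the panels show that the rises and falls span levels from under 1 CPM (ZNF382, ZNF808) to over 10 CPM (ZNF580, ZNF787, ZNF460, ZNF274).

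Members with a described role moved in both directions. Of the 11 listed, 3 were higher, 3 lower, 3 not called and 2 (ZNF93 and ZNF568) not tested, so 6 of 9 tested were called, where 56.5% of all genes and 40.7% of members were. ZNF274, which binds the 3′ ends of other zinc finger genes and recruits SETDB1 there, stood at 20.9, 20.2 and 20.7 CPM in shLuc and 14.3, 12.6 and 12.5 in shWDR5. ZNF274 fell by 0.65 on the log2 scale (SE 0.07, adjusted p = 4.03e-05). ZNF304, which directs silencing of tumor suppressor genes in colorectal cancer cells, stood at 15.9, 16.0 and 16.5 CPM against 13.2, 11.7 and 13.4 (log2 −0.34, adjusted p = 0.00317). ZNF473, which works in the 3′ end processing of histone transcripts, stood at 15.7, 14.7 and 16.3 CPM against 18.8, 18.5 and 18.5 (log2 0.26, adjusted p = 0.00762).

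Other calls in that list were weak. ZNF331, an imprinted gene, stood at 7.41, 7.40 and 7.16 CPM in shLuc and 6.35, 6.32 and 6.04 in shWDR5 (log2 −0.23, adjusted p = 0.0247), and the call was lost without shLuc replicate 1 (adjusted p = 0.075), shLuc replicate 2 (0.0541), shWDR5 replicate 2 (0.0569) or shWDR5 replicate 3 (0.0814). The ZNF331 call was also lost with DESeq2 (adjusted p = 0.124), with the GC and length offsets (0.0792) and with the replicate block and offsets together (0.094). ZNF146 stood at 149, 164 and 174 CPM in shLuc and 172, 187 and 192 in shWDR5, groups that overlap (log2 0.18, adjusted p = 0.0462). The ZNF146 call was lost without shLuc replicate 1 (adjusted p = 0.124), shLuc replicate 2 (0.115), shWDR5 replicate 2 (0.13) or shWDR5 replicate 3 (0.147). It was also lost with library totals (0.172) and with no low-count filter (0.0532). Exons of ZNF146 overlap those of ZNF565 on the other strand, which this library kit does not separate. ZNF91, which represses SVA elements, stood at 0.486, 0.774 and 0.223 CPM in shLuc and 0.756, 0.369 and 0.529 in shWDR5 and was not called (log2 0.14, SE 0.39, adjusted p = 0.786). The BRCA1 partner ZNF350 (log2 −0.05, SE 0.22) and the repressor ZNF224 (log2 0.06, SE 0.09) were not called either.

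Along the chromosome, members were grouped where neighboring starts lay no more than 1 Mb apart, which gave 9 clusters of at least 5 members. Beside the counts per cluster, 17.5% of all tested members were higher and 23.2% lower. Of all tested genes, 26.6% were higher and 29.9% lower. The largest runs from ZNF628 to ZNF446 near the end of the long arm, from 55.99 to 59 Mb (hg19), with 60 members, of which 53 were tested, 14 higher and 13 lower. The neighboring cluster from ZNF175 to ZNF331 (52.07 to 54.08 Mb) has 43 members, with 36 tested, 3 higher and 9 lower. From ZNF575 to ZNF296 (44.04 to 45.58 Mb) all 24 members were tested, and 4 were higher and 7 lower. From ZNF565 to ZNF573 (36.67 to 38.27 Mb) 2 of 21 tested members were higher and 4 lower.

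Few members were called in the cluster beside the centromere. From ZNF101 to ZNF254 (19.78 to 24.31 Mb), 21 of 36 members were tested and only 2 were called (9.52%), with a median level of 0.265 RPKM, the lowest of the 9 clusters. The cluster from ZNF653 to ZNF791 had a similar median level (0.272 RPKM), with 33.3% of its tested members called. Whether level bears on these shares was not tested. The called genes were ZNF254, at 3.97, 5.03 and 4.44 CPM in shLuc and 5.38, 5.91 and 6.90 in shWDR5 (log2 0.44, adjusted p = 0.00991), and ZNF714, at 13, 14.8 and 14.6 CPM against 8.68, 9.61 and 10.5 (log2 −0.55, adjusted p = 0.000433). Both were named after their values were seen. With offsets for GC content and length, added after the data were seen, 4 members of this cluster were called, 3 higher and 1 lower. ZNF431, the most abundant member there at 2.00 RPKM, was not called (log2 −0.17, adjusted p = 0.172).

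The short cluster from ZNF302 to ZNF792 (35.17 to 35.45 Mb) held 3 tested members, all lower. ZNF30, its most abundant member, stood at 4.80, 5.05 and 5.33 CPM in shLuc and 3.22, 3.27 and 3.18 in shWDR5 (adjusted p = 0.000167). ZNF181 (log2 −0.57, adjusted p = 0.0163) lost its call without shLuc replicate 3 (adjusted p = 0.086), and 9.97% of its windows occur in other genes. ZNF792 (log2 −0.37, adjusted p = 0.0240) lost its call without shLuc replicate 1 (0.0675), shLuc replicate 3 (0.0781), shWDR5 replicate 2 (0.0728) or shWDR5 replicate 3 (0.0807). Its adjusted p with DESeq2 was 0.0817.

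On the short arm, the cluster from ZNF557 to ZNF846 (7.07 to 9.88 Mb) had 4 higher and 3 lower among 11 tested members. That from ZNF653 to ZNF791 (11.59 to 12.74 Mb) had 2 higher and 2 lower among 12 tested, and 15 of its 27 members were too low to test. Its most abundant member, ZNF791, stood at 12.8, 12.8 and 14.2 CPM in shLuc and 8.63, 9.31 and 9 in shWDR5 (log2 −0.56, adjusted p = 0.000134). Of 4 tested members from ZNF554 to ZNF77 (2.82 to 2.94 Mb), 1 was lower. Among the most abundant members of the other clusters, ZNF428 (log2 0.48, adjusted p = 0.000362) and ZNF83 (log2 0.27, adjusted p = 0.00808) were higher, and ZNF57 (log2 0.10, adjusted p = 0.411) was not called.

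Median changes of most clusters were small without offsets. Apart from the cluster of ZNF30, whose median was −0.57 on the log2 scale (−0.39 without shLuc replicate 3), the medians ran from −0.12 (ZNF653 to ZNF791) to 0.08 (ZNF101 to ZNF254). With the GC and length offsets described further on, an alternative added after the data were seen, the median of ZNF101 to ZNF254 was 0.26, that of ZNF565 to ZNF573 changed from −0.07 to 0.09, and that of ZNF30's cluster was −0.42. Without offsets, the median of ZNF101 to ZNF254 was −0.09 without shWDR5 replicate 1 and 0.01 without shLuc replicate 1, and the median of ZNF175 to ZNF331 moved from −0.09 to −0.004 without shLuc replicate 3. Cluster medians were described and not tested.

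**Figure D3:**
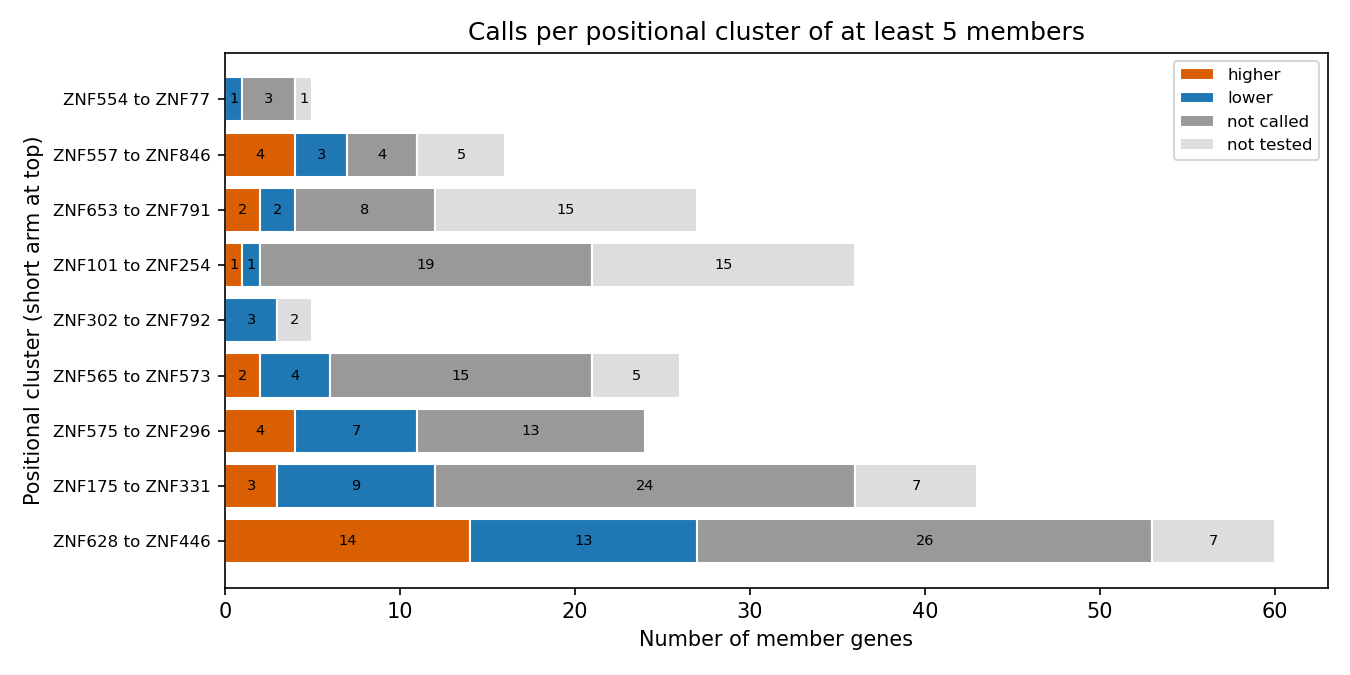
Number of member genes called higher, called lower, not called and not tested in each of the 9 positional clusters of at least 5 members, from the short arm at the top to the end of the long arm at the bottom. The cluster from ZNF101 to ZNF254 has 2 calls among 36 members, and the cluster from ZNF628 to ZNF446 has 14 higher and 13 lower among 60.

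Splitting at gaps over 0.5 Mb divided the last cluster into 2 stretches whose calls differed in direction. The first, from ZNF628 to ZNF835 (55.99 to 57.18 Mb), has 17 members, of which 14 were tested, 8 were higher and 0 were lower (median log2 fold change 0.41; with GC and length offsets 8 higher, 1 lower and 0.31), and its members have a median GC content of 59.6%. The second, from ZNF264 to ZNF446 (57.7 to 59 Mb), has 43 members, of which 39 were tested, 6 were higher and 13 were lower (median −0.11), at a median GC content of 46.1%. With GC and length offsets the second stretch again had 6 higher and 13 lower, but its median was −0.016. The first stretch includes ZNF628, ZNF579, ZNF524, ZNF865, ZNF580, ZNF787, ZNF471 and ZNF470, all higher. All of these but ZNF471 and ZNF470 are also among the rises at 60% GC or more listed further on. The parts of position and GC content cannot be told apart in these counts. ZNF579 lost its call without shLuc replicate 2 (adjusted p = 0.066) or shLuc replicate 3 (0.0679). The 9 other genes tested within the first stretch were 4 higher and 1 lower, with a median of 0.16, and the 9 within the second were 2 higher and 1 lower, with a median of 0.35. The difference between the stretches was not tested.

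Members next to each other in order moved alike in some pairs and in opposite directions in others. There were 29 pairs of members adjacent among the tested members of a cluster with both called, of which 8 were both higher, 13 both lower and 8 opposite. No untested member lay between 26 of these pairs, of which 8 were both higher, 11 both lower and 7 opposite. The pairs are adjacent in member order only: other genes can lie between them, and the starts of ZNF358 and ZNF414 lay 994 kb apart. The same shares were not taken for other genes, so the counts are a description. In the second stretch just named, ZNF264, ZNF805 and ZNF460 follow each other on the plus strand and were all lower, at log2 −0.39, −0.45 and −1.09. ZNF264 stood at 38.7, 41.9 and 38.2 CPM in shLuc and 28.8, 30.4 and 31.3 in shWDR5, and ZNF805 at 13.5, 16.8 and 15.1 CPM against 10.5, 10.9 and 11.8. Of the windows of ZNF805, 7.55% occur in other ZNF genes, most often ZNF264, so reads there cannot be assigned to a single gene by sequence. Farther on, ZNF135, ZNF329 (log2 −0.30) and ZNF274 were lower in a row. On the middle of the long arm, ZNF285, ZNF229 (log2 −0.55) and ZNF180 (log2 −0.29) were lower in a row, though ZNF180 lost its call without shLuc replicate 2 (adjusted p = 0.0574), shLuc replicate 3 (0.178), shWDR5 replicate 1 (0.117) or shWDR5 replicate 3 (0.0649). The ZNF180 call was also lost with the GC and length offsets (0.0939) and with the replicate block and offsets together (0.0822).

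A run of opposite changes lay at the end of the cluster from ZNF557 to ZNF846. ZNF121, ZNF561, ZNF562 and ZNF846 are consecutive tested members on the minus strand, with the untested ZNF812 between ZNF562 and ZNF846, and these were picked after their values were seen. ZNF121 stood at 20.8, 22.6 and 24.2 CPM in shLuc and 16.0, 15.0 and 16.5 in shWDR5 (log2 −0.51, adjusted p = 0.000271). ZNF561 stood at 56.1, 56.7 and 61.2 CPM against 76.9, 79.1 and 77.2 (log2 0.42, adjusted p = 0.000118), and ZNF562 at 32.7, 37.0 and 38.1 CPM against 22.7, 23.9 and 23.8 (log2 −0.61, adjusted p = 4.77e-05). Directions alternated between tested neighbors, with separate groups in each case. ZNF846, at 1.52, 1.62 and 1.76 CPM against 2.16, 2.43 and 2.05, was higher (log2 0.45, adjusted p = 0.0128), though its adjusted p was 0.058 without shWDR5 replicate 2 and 0.0649 with DESeq2. Another opposite pair, ZNF814 (log2 0.54) and ZNF417 (log2 −0.54), is uncertain because 30.5% of the windows of ZNF417 occur in other genes, most often ZNF587.

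Base composition differed between the members that rose and those that fell. GC content could be read for 249 of the 253 members from a GENCODE v29 transcript of the same symbol. Its median was 48.6% over the called higher members with a value, 42.5% over the lower and 41.9% over those not called. Of the 17 tested members at 60% GC or more, 13 were higher, 0 were lower and 4 were not called, with a median log2 fold change of 0.53. The 13 are ZNF358, ZNF414, ZNF653, ZNF574, ZNF575, ZNF428, ZNF296, ZNF628, ZNF579, ZNF524, ZNF865, ZNF580 and ZNF787, and their log2 fold changes ran from 0.34 to 1.31. ZNF784, ZNF444, ZNF497 and ZNF837 were the 4 not called, and ZNF541 was not tested.

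Below 50% GC the balance was the reverse, with 18 higher and 42 lower among 161 tested members (median −0.06). The limits of 50 and 60% were chosen after the values were seen, so these counts are a description. All genes showed a like order with smaller values: at 60% GC or more, 873 were higher and 538 lower of 2236 (median 0.12), and below 50% 1631 were higher and 2717 lower of 7964 (median −0.07). ZNF genes on other chromosomes at 60% or more were 14 higher and 1 lower of 25 (median 0.26). Across the 192 tested members with a value, Spearman's rho of log2 fold change with GC content was 0.16, and across all 14906 such genes it was 0.15. These correlations are across genes within the same libraries, and genes are not independent replicates.

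Because GC content moved with the calls, the fit was repeated with offsets that remove a smooth trend on GC content and length in each library, an alternative added after the data were seen. The 13 rises remained higher and past the threshold, with log2 fold changes of 0.19 to 1.24. The median of the 17 members moved from 0.53 to 0.38, and ZNF784 became lower (log2 −0.25, adjusted p = 0.0382, against −0.12 without offsets). Below 50% GC the counts came closer together with the offsets, at 27 higher and 36 lower (median 0.04).

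The number of linker matches followed a like order. Consecutive C2H2 fingers are often joined by a conserved linker of 5 residues, and exact matches to its codons were counted in the same transcripts. Linkers with any other residue were not counted, so a low number of matches does not mean few fingers. Of 35 tested members with 0 linker matches, 14 were higher and 7 lower (median log2 fold change 0.03). With 1 to 5 matches, 12 were higher and 12 lower of 58 (median −0.01). With 6 to 10 matches, 5 were higher and 15 lower of 67 (median −0.10), and with over 10, 2 were higher and 11 lower of 32 (median −0.17). Linkers and GC content are tied: 11 of the 13 rises at 60% GC or more had 0 linker matches. With the GC and length offsets the bins held 15 higher and 8 lower at 0 matches, 12 and 10 at 1 to 5, 10 and 13 at 6 to 10, and 5 and 10 at over 10, with medians of 0.08, 0.06, 0.04 and −0.03. ZNF470, with 12 matches and 41.0% GC, was the largest rise against this order. The bins were set after the values were seen and were not tested, and the parts of linkers, GC content and length cannot be told apart in these counts.

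**Figure D4:**
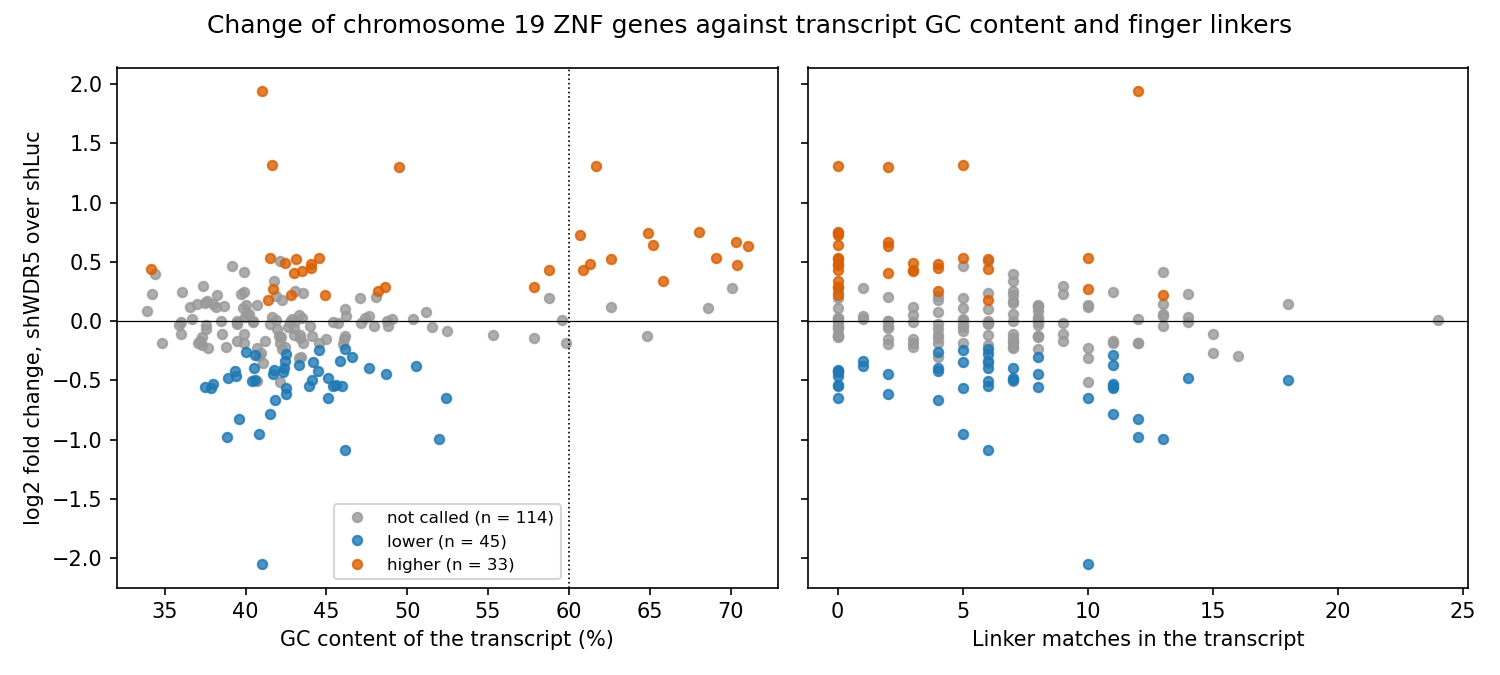
Log2 fold change (shWDR5 over shLuc) of the 192 tested members with a GENCODE transcript against the GC content of that transcript in percent (left, dotted line at 60%) and against the number of finger linker matches (right); each point is a gene, colored by its call. To the right of the dotted line 13 of 17 members are higher and 0 are lower, and among members with over 10 linker matches 2 are higher and 11 lower.

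Promoters of members shared sequence features, whether the member rose, fell or was not called. RefSeq promoters, from 250 bases before to 50 after the start, were matched for 212 members. The ETS letters CCGGAAG, as in the printed promoters of ZNF580, ZNF132 and ZNF460, occurred on either strand in 95 of the 212 (44.8%), against 34.1% of the 214 promoters of ZNF genes on other chromosomes and 10.7% of all 27305 promoters. They were present in 17 of 30 higher members, 16 of 40 lower members and 43 of 97 members not called. The share differed between clusters: 18 of 26 promoters from ZNF101 to ZNF254 (69.2%) and 20 of 32 from ZNF175 to ZNF331 (62.5%) held the letters, against 2 of 24 from ZNF653 to ZNF791 (8.33%) and 0 of 5 from ZNF554 to ZNF77.

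Other letters were searched on both strands in the same windows. GGGCGG, the core bound by Sp factors, occurred in 67.5% of the 212 matched members' promoters and 65.3% of those of the 167 tested members. It occurred in 59.3% of promoters of ZNF genes on other chromosomes and 44.6% of all promoters. TATAAA occurred in 3 of the 167 (1.8%), against 12% of all promoters. The E-box CACGTG occurred in 5.39% against 7.43%. A match is a stretch of letters and not a measured binding site.

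The partners through which KRAB zinc finger proteins silence chromatin were also measured. Of 22 listed genes, all tested, 5 were higher, 8 lower and 9 not called, so 59.1% were called, near the 56.5% of all genes. TRIM28, the co-repressor that the KRAB domain binds, stood at 418, 398 and 369 CPM in shLuc and 480, 443 and 439 in shWDR5 (log2 0.20, adjusted p = 0.0176), and its call was lost without shLuc replicate 3 (adjusted p = 0.0609) or shWDR5 replicate 1 (0.0599). SETDB1, the H3K9 methyltransferase, stood at 67.1, 64.7 and 61.7 CPM against 50.7, 50.2 and 48.1 (log2 −0.38, SE 0.06, adjusted p = 0.000292). The groups were separate for both. The largest changes of the list were falls of the maintenance DNA methyltransferase DNMT1, at 210, 205 and 199 CPM against 143, 133 and 131 (log2 −0.59, adjusted p = 9.16e-06), of UHRF1, which guides DNMT1 to newly copied DNA (log2 −0.49, adjusted p = 2.64e-05), and of FAM208A, the TASOR subunit of the HUSH complex (log2 −0.47, adjusted p = 0.00271). The higher members of the list also included CHD3, HDAC1 and MORC2, at log2 0.27 to 0.28, and the lower ones ATF7IP, CBX5 and CHD4. Whether these changes bear on the zinc finger genes was not tested.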

How the data were processed

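Poly-A RNA of MCF10DCIS cells was prepared with a TruSeq kit and sequenced on a HiSeq 2000. According to the submitters' processing notes, the authors aligned reads with TopHat2 2.1.0 and counted them per gene with featureCounts on hg19, and the deposited table holds raw counts per gene in each library with exon length and position. Counting options (strand, reads with several matches) and read length are not given in the sources used here. A second deposited table holds the authors' own comparison from edgeR 3.2.2 (log2 fold changes, p-values and false discovery rates) and was not used.

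Counts were tested with the quasi-likelihood test of edgeR 4.0.16 (R 4.3.3) over all genes passing filterByExpr (16117), with TMM scaling and Benjamini-Hochberg adjustment over all of them. A call is an adjusted p under 0.05. CPM values are TMM-scaled, RPKM divides them by the deposited exon length, and depth was 38218108 to 57640167 counts per library. On simulated counts with 200 of the 16117 genes changed, the test made 175 calls, of which 15 were false (more than the 5% aimed at), and it recovered 95.9% of genes simulated at log2 1, 78.3% at −1, 78.1% at 0.5 and 65.9% at −0.5. Each recovery rate rests on 41 to 64 genes of a single simulation. In the data 56.5% of genes were called, a far larger share than was changed there, so these rates do not carry over to the calls reported here. Alternatives were RLE scaling, library totals, DESeq2 1.42.0, no low-count filter, a limit of 0.5 RPKM, a fold limit of 0.6, a replicate block, each library left out, and a 0.5 Mb gap between clusters. Offsets for GC content and length were added after seeing the data.

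Named genes were the 10 largest rises and 10 largest falls among called members with groups that do not overlap, the most abundant member of each cluster, the 5 most abundant members, 11 members with a described role, WDR5, and TRIM28, SETDB1 and the 3 largest changes of 22 silencing partners; other genes were named after their values were seen, and some partners are counted but not reported here by name. The members and lists were chosen with earlier results of these data known. Transcript GC content, linker codons and 50-base windows shared among ZNF genes came from GENCODE v29, and promoters from RefSeq GRCh38.p14; neither was used for coordinates in hg19.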

Additional observations from a re-analysis of the deposited data

How the results depend on the processing

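Of the 79 called members, 61 kept their call in every one of the 14 alternatives in which they were tested (26 higher, 35 lower), 18 lost it in at least 1, and 0 changed sign. With the fold limit of 0.6 the counts were 10 higher and 11 lower members, and 1751 higher and 1939 lower of all genes. The members' median log2 fold change, −0.03, was −0.084 with library totals (where the median of all genes was −0.068), 0.051 with the GC and length offsets, and −0.055 to −0.027 with 1 library left out. The sources state no pairing of the libraries. Deviations of same-numbered libraries correlated at 0.372 (the highest of all pairs), 0.0358 and 0.116, and shLuc replicate 2 correlated best with shWDR5 replicate 3 (0.21). These values do not settle whether replicate numbers pair the libraries. The offsets gave 42 higher and 41 lower members. The replicate block gave 37 higher and 47 lower members, and with the block and offsets together 45 were higher and 39 lower, with a median of 0.050. DESeq2 gave 29 higher and 37 lower. Members that were not called changed sign: ZNF581 (0.01) was −0.044 with library totals, −0.043 with offsets, −0.043 with block and offsets, and −0.056 to 0.11 with 1 library left out. ZNF350 (−0.05) was 0.056 with offsets, 0.045 with block and offsets, and −0.29 to 0.10 with 1 library left out, over which ZNF91 (0.14) ran from −0.19 to 0.55. The cause of these shifts was not tested. Low counts limit ZNF470, ZNF382, ZNF808 and ZNF135, and 59 members could not be tested.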
